A study of Mus musculus with 8 samples.

Results

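Cytosolic ribosomal protein genes encode the proteins that, with ribosomal RNA, build the large and the small subunit of the ribosomes of the cytosol. They were taken from the count table by symbol, as genes named Rpl or Rps with a number and as Rpsa, Rplp0, Rplp1 and Rplp2, with a mean of at least 1 CPM (counts scaled to the library total) over the 8 libraries. Of the 33212 genes of the table, 86 matched by symbol and 83 reached that mean. Just inside the limit was Rps3a3 at 1.01 CPM, and just outside was Rpl39l at 0.087 CPM. By identifier, 80 of the 83 were the protein-coding gene that their symbol names, 48 of the large and 32 of the small subunit. Rps3a2 and Rps3a3 are processed pseudogenes in the GENCODE annotation, at 1.31 and 1.01 CPM. The row named Rpl24 carries the identifier of another gene of chromosome 16, Zbtb11, at 8.67 CPM, while the identifier of the gene Rpl24 stands under a name in capitals that the symbol rule did not take.

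Each ribosome holds 1 copy of nearly every one of these proteins, so their genes are expressed together in all cells. The large subunit forms peptide bonds, and the small subunit reads the mRNA. In many of their mRNAs the first bases are a C followed by a run of pyrimidines, the TOP motif, through which the TOR kinase adjusts translation to the supply of amino acids. Liver is a tissue of heavy protein synthesis, and the mice of this study were fed on a diet lacking an amino acid.

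RNA-seq was made from the liver of 4 Nnmt KO mice (Alb-Cre::Nnmt flox/flox, in which the albumin promoter drives Cre in hepatocytes, so that Nnmt stays intact in the other liver cells) and of 4 control mice (Nnmt flox/flox without Cre, named WT in the labels). All were male, of the C57BL/6 strain, and kept for 8 weeks on the MCD diet, which is short of methionine and choline. Their age is not given in the sources used here. The control mice also carry the flox alleles, and no group of mice with Cre alone or on a complete diet is among these libraries. The columns of the table carry the genotype only, so the libraries were lettered a to d within each genotype. Nnmt, the targeted gene, which encodes nicotinamide N-methyltransferase, was at 31.8, 44.8, 68.9 and 83 CPM in the Nnmt KO libraries and at 112.3, 224.4, 133.8 and 84.9 CPM in the control libraries. Here and below, CPM is scaled by edgeR's TMM factors, except for the limit of 1 CPM above. Library depth was between 75020072 and 87934362 counts, and none of the 8 genes listed as hepatocyte markers was at 0 in every library.

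The sequences at the start of the transcripts are shown for the members that take up most of the account below, those in the distal stretch of chromosome 7. They come from RefSeq (GRCm38.p6) and run from 40 bases before to 20 bases after the annotated start, 5′ to 3′ on the strand of the gene. Capitals mark the longest run of C and T.
Rps3 (chr7:99483690-99483749, minus strand): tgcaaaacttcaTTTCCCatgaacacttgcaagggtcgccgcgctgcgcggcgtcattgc
Rpl27a (chr7:109519155-109519214, plus strand): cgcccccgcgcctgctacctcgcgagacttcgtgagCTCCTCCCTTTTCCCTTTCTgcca
Rps13 (chr7:116334171-116334230, minus strand): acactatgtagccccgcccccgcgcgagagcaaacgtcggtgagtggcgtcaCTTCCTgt
Rps15a (chr7:118116128-118116187, minus strand): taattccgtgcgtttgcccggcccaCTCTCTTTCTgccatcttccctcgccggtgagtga
Rplp2 (chr7:141447611-141447670, plus strand): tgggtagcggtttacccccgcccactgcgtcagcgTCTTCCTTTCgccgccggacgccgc

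The run measured 20 bases in Rpl27a, 10 in Rps15a and Rplp2, and 6 in Rps3 and Rps13. RefSeq held 77 starts for 65 genes that match the symbol rule outside chromosome 18. A C followed by 4 bases that are each C or T, read on the strand of the gene from 20 bases before to 20 after the start, was found at 58 of them (75.3%), against 49.4% of 32851 starts of all genes. CCGGAA on either strand, the core of the site of ETS factors, was within 250 bases before to 50 after the start in 46.8% of them and in 14.9% of all starts. AAGATGGC, the core of the YY1 site, was in 10.4% against 2.7%, and TATAAA on the strand of the gene in the 50 bases before the start was in 1.3% against 2.6%. On the other strand CCGGAA reads TTCCGG, which can share bases with a run of C and T. A match describes the sequence only.

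Taken over all 8 livers, the members held 2.21% to 2.77% of the counts of a library. Their levels were compared with each other as CPM per kb of the principal transcript, a scale on which the 80 coding members ranged 46-fold. Highest in the large subunit were Rpl41 (1133 CPM per kb), which encodes the smallest ribosomal protein, and the stalk genes Rplp1 (1058) and Rplp0 (827), whose proteins recruit the elongation factors. Lowest were Rpl7l1 (24.6), Rpl22l1 (34.7) and Rpl5 (115), which encodes a carrier of 5S RNA. In the small subunit the order ran from Rps2 (941), Rps15 (813) and Rps14 (688) down to Rps3 (169), Rps24 (135) and Rps20 (40.4 CPM per kb). The value for Rps20 was divided by a principal transcript of 3706 bases, long for this family. Long principal transcripts were also used for Rpl7l1 (2606 bases), Rpl5 (2045), Rps3 (1908) and Rps24 (1613). The low places in this order therefore depend on the annotated length and are not an order of CPM. The median was 331 CPM per kb in the large and 341 in the small subunit.

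The first question was whether the family as a whole differed between the genotypes. The mean log2 level of the 80 coding members, as a deviation from their mean over the 8 libraries, was -0.28, -0.01, -0.06 and 0.14 in Nnmt KO livers a to d and 0.14, 0.03, 0.13 and -0.09 in control libraries a to d. The genotypes overlapped: Nnmt KO library d was as high as the highest control library, and control library d lay below Nnmt KO libraries b and c. On this TMM-scaled level Nnmt KO library a stood apart, with 71 of the 80 members at their lowest of the 8 libraries. As a share of all counts, without TMM factors, library a was not the lowest. The 83 members held 2.44%, 2.41%, 2.26% and 2.46% in Nnmt KO libraries a to d. In control libraries a to d they held 2.58%, 2.21%, 2.77% and 2.45%. The members varied together, since the median SD of a member over the libraries was 0.17 on the log2 scale and 0.09 once the mean of the library was taken off.

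**Figure D1:**
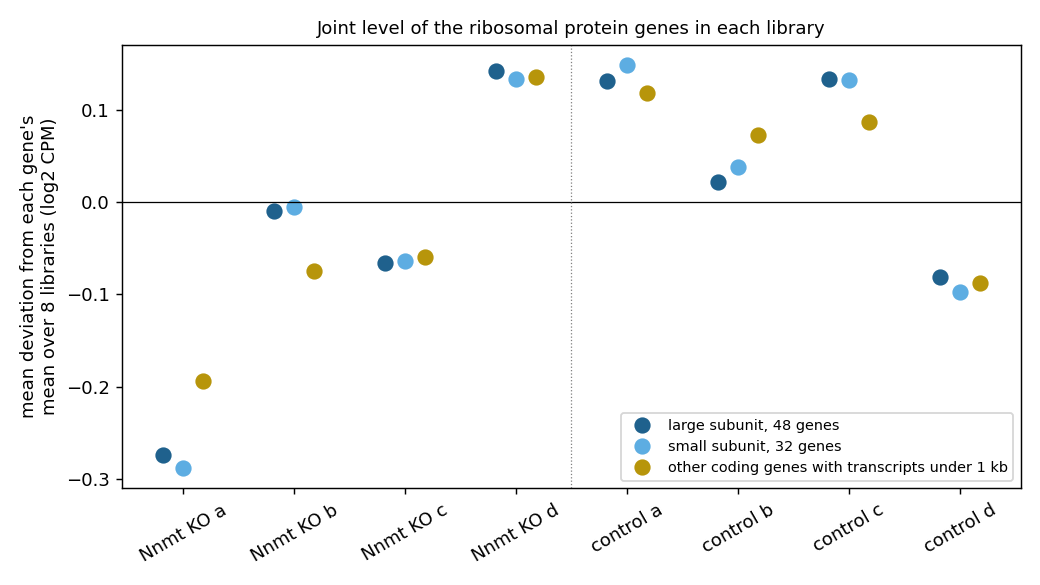
Mean deviation of log2 CPM from each gene's mean over the 8 libraries (y axis) for each library (x axis), with 1 point each for the 48 large subunit genes, the 32 small subunit genes and the 692 other coding genes with transcripts under 1 kb. The points of a library lie close together. On this TMM-scaled CPM Nnmt KO library a is the lowest (-0.27 and -0.29 for the subunits), and the genotypes overlap.

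In edgeR's fit, 68 of the 83 members had a log2 fold change below 0 (Nnmt KO over control) against 47.7% of the 15291 genes tested. Their median was -0.08, and that of all genes was 0.02. In the quasi-likelihood test of edgeR none passed a Benjamini-Hochberg adjusted p of 0.05, whereas 0.32% of all genes did. The smallest adjusted p was 0.162. The median rested on single libraries, being -0.02 without Nnmt KO library a, -0.03 without control library a, -0.12 without control library d and -0.15 without Nnmt KO library d.

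Other values of the libraries were set beside the joint level of the members. The 692 other coding genes with transcripts under 1 kb were at -0.19, -0.07, -0.06 and 0.14 in Nnmt KO livers a to d and at 0.12, 0.07, 0.09 and -0.09 in control libraries a to d, on the same scale. Nnmt KO library a had the highest TMM factor, 1.21 against 0.876 to 1.06 in the others. CPM is divided by this factor, so it enters the level of the members, of the short genes and of the markers below alike. The 8 hepatocyte markers summed to at most 116160 CPM in Nnmt KO and to 80535 to 118055 CPM in control mice. Their sum was lowest in Nnmt KO library a, 66270 CPM. The 8 stellate cell markers were at their highest there, 905 CPM in a range of 470 to 905 CPM in Nnmt KO and 359 to 560 CPM in control mice. So were the 10 macrophage markers, 1381 CPM in ranges of 827 to 1381 and 619 to 1280 CPM, and the 6 cholangiocyte markers, 279 CPM in ranges of 89.4 to 279 and 50.3 to 167 CPM. No marker of these 4 lists was at 0 in every library. The other marker lists differed in direction. Neutrophil markers were also highest in library a (15.8 CPM). Endothelial (183 CPM) and B and plasma cell markers (9.94 CPM) were at the lowest of the Nnmt KO libraries there. T and NK cell (6.89 CPM, in 5.84 to 8.05) and erythroid markers (708 CPM, in 589 to 765) lay inside the Nnmt KO range. In whole liver, fewer cells of a type and less RNA per cell cannot be told apart. The part of transcript length, of the library and of cell types in the level of the members was not tested.

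The balance of the subunits was compared next. The median log2 fold change was -0.08 over the large subunit (41 of 48 below 0) and -0.09 over the small subunit (25 of 32 below 0). Summed over genes, the ratio of large to small subunit CPM was 1.57, 1.54, 1.55 and 1.57 in Nnmt KO livers a to d and 1.54, 1.56, 1.55 and 1.59 in control libraries a to d. On the mean of log2 values, large minus small was -0.0084 ± 0.0088 (SD, n = 4) in Nnmt KO and -0.0166 ± 0.0164 (SD, n = 4) in control mice. This difference of 0.0082 between genotypes was smaller than either SD. Library a of the Nnmt KO mice, the lowest of all for both subunits on TMM-scaled CPM, had a ratio within the range of the control libraries.

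At an unadjusted p under 0.05 in edgeR, 7 members were lower in the Nnmt KO group (7.13% of all tested genes were called this way) and 0 were higher, where 5.45% of all genes were. DESeq2 also gave 7 and 0 (7.59% and 6.65% of all genes). Among them were Rps13, Rplp2, Rpl27a, Rps15a, Rps3 and Rpl3. All but Rpl3 lie on chromosome 7 beyond 75 Mb, and the 6 called there are all 6 members located in that stretch. The stretch beyond 75 Mb was chosen because earlier results of these data showed its genes lower in Nnmt KO mice, so the position of these members is a description.

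**Figure D2:**
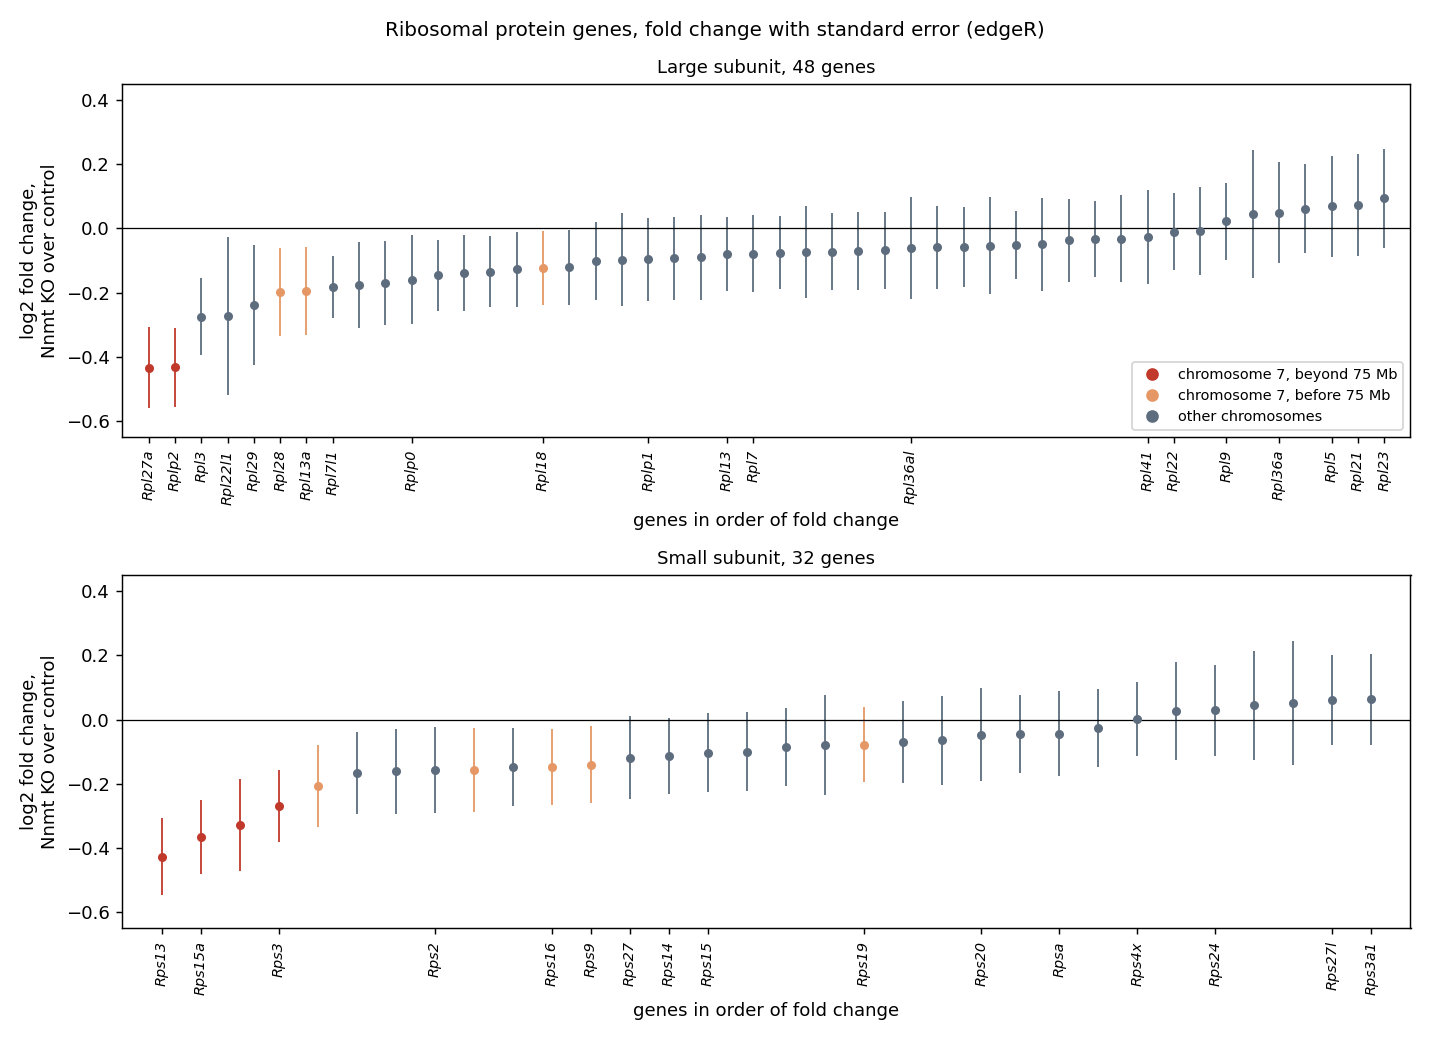
Log2 fold change of each coding member, Nnmt KO over control (y axis, points), with its standard error from edgeR (bars), for 48 large and 32 small subunit genes in order of fold change (x axis), with names for some of those in the text. The 6 members on chromosome 7 beyond 75 Mb lie between -0.43 and -0.27, at the low end of both subunits.

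Rps13, whose protein sits at the contact between the subunits, was at 113.4, 138.2, 137.4 and 157.1 CPM in Nnmt KO livers a to d and at 198.6, 182.3, 182.9 and 170.1 CPM in control libraries a to d. Every Nnmt KO library was below every control library. The log2 fold change was -0.43 (standard error 0.12, unadjusted p = 0.00455, adjusted p = 0.162 in edgeR).

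Rpl27a, a gene of the large subunit, was at 228.3, 290.6, 276.9 and 301.2 CPM in Nnmt KO and at 392.8, 365, 396.7 and 327 CPM in control mice. These libraries did not overlap either. Its log2 fold change was -0.43 (standard error 0.13, unadjusted p = 0.0056, adjusted p = 0.178 in edgeR).

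Rplp2 encodes one of the acidic proteins of the stalk. Its values were 159.6, 197.6, 186.4 and 203.4 CPM in Nnmt KO and 279.6, 254.1, 256.3 and 217.9 CPM in control mice, without overlap. The log2 fold change was -0.43 (standard error 0.12, unadjusted p = 0.00478, adjusted p = 0.166 in edgeR). Its partners in the stalk, Rplp0 on chromosome 5 and Rplp1 on chromosome 9, had log2 fold changes of -0.16 (standard error 0.14) and -0.10 (standard error 0.13), with overlapping libraries.

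Rps15a was at 127.5, 144, 124.8 and 154.6 CPM in Nnmt KO and at 184.6, 163.5, 195.5 and 166 CPM in control mice, again without overlap (log2 fold change -0.37, standard error 0.12, adjusted p = 0.212 in edgeR). Rps3, at the entry of the mRNA channel, was at 258.6, 305.3, 296.9 and 310.3 against 372.1, 343.8, 367 and 328.1 CPM, also without overlap (log2 fold change -0.27, standard error 0.11, adjusted p = 0.348).

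Rpl3, a large subunit protein that reaches into the peptidyl transferase centre, lies on chromosome 15. It was at 373.3, 469.8, 452 and 452.2 CPM in Nnmt KO and at 559.8, 549.5, 501.5 and 503.8 CPM in control mice, without overlap (log2 fold change -0.28, standard error 0.12, unadjusted p = 0.0422, adjusted p = 0.374 in edgeR).

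The number of members passing an adjusted p varied with the test, and the number at an unadjusted p varied with the library left out. With DESeq2's test, 3 members passed an adjusted p of 0.05, namely Rpl27a (adjusted p = 0.0249), Rplp2 (0.0261) and Rps13 (0.0297), where 3.32% of all genes passed. The number of members lower at an unadjusted p under 0.05 was 4 when any of Nnmt KO library a, Nnmt KO library c, or control library a, b or c was left out, 5 without Nnmt KO library b, and 7 when Nnmt KO library d or control library d was left out. The median log2 fold change of the members in the distal stretch of chromosome 7 was -0.40 with all libraries. With single libraries left out it lay between -0.47 (without Nnmt KO library d) and -0.34 (without Nnmt KO library a). Whether the lower counts of members reflect the smaller number of libraries was not tested. The libraries of 7 members did not overlap, all of them lower in Nnmt KO (4.81% of all genes were lower in this way, and 3.34% higher). These were the 6 named above and Rpl7l1 (log2 fold change -0.18, standard error 0.10, unadjusted p = 0.0861, adjusted p = 0.464 in edgeR).

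Levels within a library were then compared, as log2 CPM minus the mean log2 CPM of the 80 coding members in the same library, a scale on which a joint movement of the family cancels. Averaged over the 6 members on chromosome 7 beyond 75 Mb, this relative level was -0.35, -0.34, -0.39 and -0.37 in Nnmt KO livers a to d and -0.08, -0.09, -0.10 and -0.08 in control libraries a to d. The means were -0.36 ± 0.02 (SD, n = 4) and -0.09 ± 0.01 (SD, n = 4), so that these mRNAs stood at 82.7% of their control level relative to the mean of all 80 coding members, themselves included. Library a was no longer apart from the other Nnmt KO libraries on this scale. Each of the 6 had all Nnmt KO libraries below all control libraries, while 0 other members did (1.74% of all genes, set against the members in the same way, were lower without overlap). In a fit of edgeR with libraries scaled to the 80 coding members, Rpl27a, Rps13, Rplp2 and Rps15a were lower at an unadjusted p under 0.05 (2.47% of all genes), 0 members were higher (8.44%) and 0 passed an adjusted p of 0.05 (0.124%). On the relative level, higher without overlap were 2 members, Rps4x and, named after its values were seen, Rpl9 (5.21% of all genes).

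**Figure D3:**
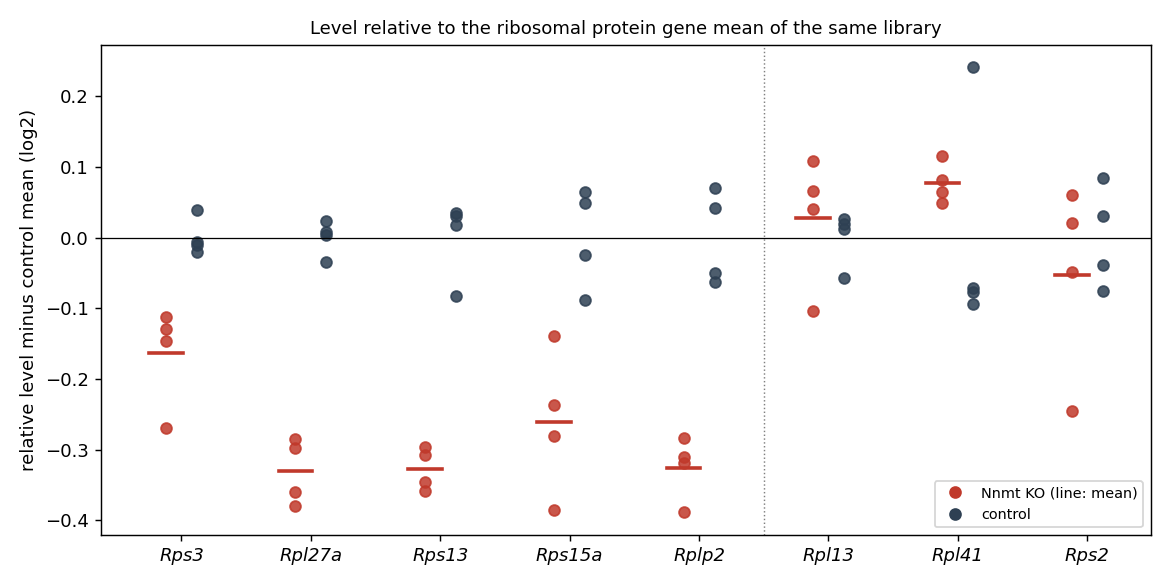
Level relative to the mean of the ribosomal protein genes in the same library, minus the control mean of the gene (y axis, log2). On the x axis are 5 members on chromosome 7 beyond 75 Mb. Right of the dotted line are Rpl13 and the member of each subunit with the highest CPM per kb, Rpl41 and Rps2. Points are the 4 libraries of a genotype and lines the Nnmt KO mean. The Nnmt KO libraries lie below all control libraries for each of the 5 and overlap them for the other 3.

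The size of the difference varied among these members on this relative scale. Nnmt KO minus control was -0.33 for Rpl27a, -0.33 for Rps13 and -0.33 for Rplp2, then -0.26 for Rps15a and -0.16 for Rps3. The SD over Nnmt KO libraries was 0.10 for Rps15a and 0.03 for Rps13. The 8 members on chromosome 7 before 75 Mb, among them Rps9, Rpl28, Rps19, Rps16, Rpl13a and Rpl18, differed by -0.10 to 0.02, and each overlapped between the genotypes. In edgeR's fit the median log2 fold change of these 8 was -0.15, with 0 at an unadjusted p under 0.05. That of the 66 coding members on other chromosomes was -0.07, with 1 (Rpl3, lower). Over all genes 7.13% were lower and 5.45% higher at this limit.

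The genes around these members on the chromosome were also read. Among the other genes tested within 5 Mb, the median log2 fold change was -0.14 around Rps3 (95 genes), -0.26 around Rpl27a (57), -0.27 around Rps13 (59), -0.27 around Rps15a (64) and -0.32 around Rplp2 (102 genes). Rps3 had the smallest difference of these 5 members, and the genes around it had the smallest median. Of the neighbours, between 17.5% (Rpl27a) and 40.2% (Rplp2) were lower than the member itself, so that these members were within the range of the genes around them. Over the whole stretch beyond 75 Mb, the median of 548 other genes was -0.28, and before 75 Mb that of 592 other genes was -0.04. Nnmt itself is on chromosome 9. The cause of the shift of this stretch was not tested.

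Several ribosomal protein genes have a second gene of related sequence. Of 8 such pairs, 5 had both genes at 1 CPM or more. Coding sequences were aligned from the principal transcripts of GENCODE M21 (GRCm38), since the counting step would have to tell the copies apart. Identity was 87.7% for Rpl36a and Rpl36al, 76.2% for Rps27 and Rps27l, 68.2% for Rpl22 and Rpl22l1, and 54.0% for Rpl7 and Rpl7l1. The first 60 coding bases of the closest pair and of the pair with the smallest p below are shown, with capitals where the copies differ, at 11 and 18 bases.
Rpl36a (spliced, gene at chr X 134585654 to 134588062): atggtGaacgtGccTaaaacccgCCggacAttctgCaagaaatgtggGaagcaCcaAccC
Rpl36al (spliced, gene at chr12 69182731 to 69184083): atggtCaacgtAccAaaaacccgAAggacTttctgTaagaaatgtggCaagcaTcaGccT
Rps27 (spliced, gene at chr3 90212522 to 90213651): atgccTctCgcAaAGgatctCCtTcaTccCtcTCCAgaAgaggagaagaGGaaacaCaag
Rps27l (spliced, gene at chr9 66946086 to 66949516): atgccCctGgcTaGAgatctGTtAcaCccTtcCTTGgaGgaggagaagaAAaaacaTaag

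Counts of Rps27l, a target gene of p53, were 88.8%, 75.9%, 76.8% and 89.4% of those of Rps27 in Nnmt KO livers a to d and 69.5%, 76.8%, 75.6% and 70.5% in control libraries a to d. The means were 82.7% ± 7.4 and 73.1% ± 3.6 (SD, n = 4 each), and the libraries overlapped (two-sided exact permutation test on the log2 ratio, p = 0.0857, adjusted p = 0.382 over the 5 pairs). The smallest p that 4 libraries against 4 allow is 0.0286.

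Rpl22l1, the copy of Rpl22, was the most variable of the paralogs. Its counts were 15.5%, 24.0%, 16.9% and 29.5% of those of Rpl22 in Nnmt KO and 26.9%, 29.9%, 28.3% and 21.1% in control mice (means 21.5% ± 6.5 and 26.6% ± 3.9, SD, n = 4 each, exact permutation p = 0.229, adjusted p = 0.382). Nnmt KO libraries a and c were low and library d, at 29.5%, was just below the highest control library. Rpl22 itself was at 70.6, 77.2, 75.2 and 92.1 CPM in Nnmt KO and at 78.7, 67.8, 86.6 and 84.4 CPM in control mice.

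Rpl36al gave more counts than Rpl36a, its X-linked relative, in every library (109.6% to 133.2% in Nnmt KO and 117.5% to 157.5% in control mice, exact permutation p = 0.457). Rpl7l1 was at 23.5% to 26.7% of Rpl7 in Nnmt KO and at 24.2% to 28.0% in control mice (exact permutation p = 0.171). Counts of Rps4l, which GENCODE holds to be a transcribed processed pseudogene and which the table lists under an older name outside the symbol rule, were 5.5% to 7.78% of those of Rps4x in Nnmt KO and 5.93% to 9.78% in control mice (exact permutation p = 0.371). In all 5 pairs the genotypes overlapped, and adjusted p-values were between 0.382 and 0.457. A p of this size does not show that the ratios are alike.

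**Figure D4:**
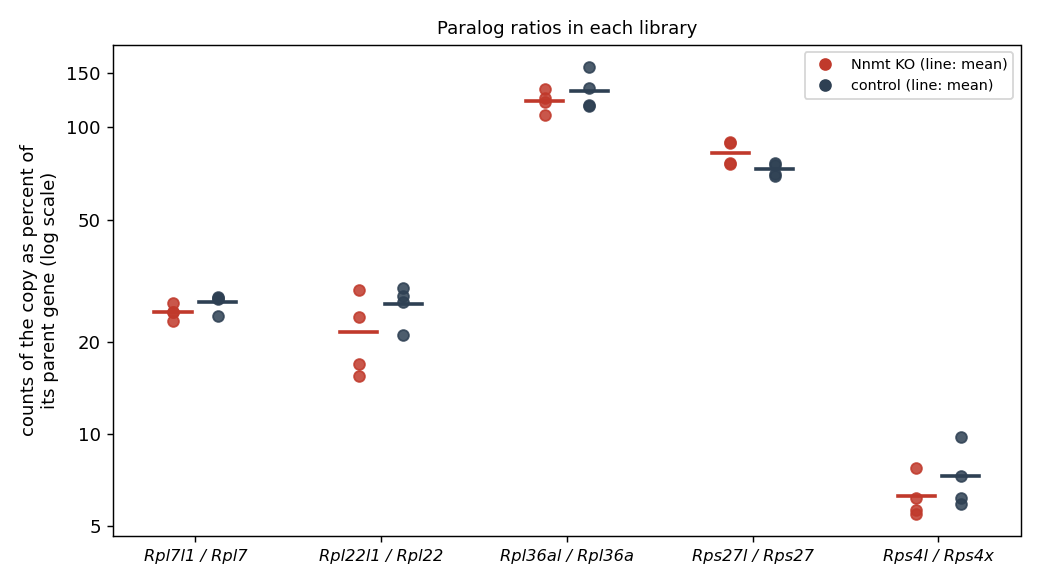
Counts of the copy as a percentage of the counts of its relative (y axis, log scale) for 5 pairs (x axis), with 1 point per library and lines at the mean of each genotype. The genotypes overlap in each pair, and Rpl22l1 over Rpl22 has the widest spread on this log scale, from 15.5% to 29.9%.

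The other 3 copies are known from tissues other than liver. Rpl3l, the form of striated muscle, had between 0 and 7 counts in a library. Rpl39l, known from the germ line, had between 0 and 24 counts, and Rpl10l, known from the testis, had 0 counts in every library. Rows of the family whose symbol ends in -ps, the mark of a pseudogene, were 25 in number. Their counts came to 0.150% to 0.178% of those of the members. Pseudogenes under other names, such as Rps3a2, Rps3a3 and Rps4l, are not in this number or share.

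The members that varied most after the mean of the library was taken off were Rpl29, named after its values were seen, and Rpl22l1 (SD 0.32 each on the log2 scale). Rpl29 was at 275.0, 172.4, 332.2 and 322.3 CPM in Nnmt KO and at 347.3, 336.2, 322.4 and 294.3 CPM in control mice, so that Nnmt KO library b was the low one. Among the members higher in Nnmt KO, the smallest p was that of the row named Rpl24 but carrying the identifier of Zbtb11, at a log2 fold change of 0.19 (standard error 0.16). Next came Rpl23 (0.09, standard error 0.15), Rpl21 (0.07, standard error 0.16) and Rps3a1 (0.06, standard error 0.14), each within its error and each below 0 without Nnmt KO library d.

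Rpsa, whose protein is also known as the laminin receptor, was at 786 ± 71.2 CPM in Nnmt KO and 810 ± 92.2 CPM in control mice (SD, n = 4 each). Rpl13 was at 435 ± 28.8 and 459 ± 37.9 CPM. Rps19, the gene first linked to Diamond-Blackfan anaemia, is on chromosome 7 before 75 Mb, with a log2 difference of -0.08 (standard error 0.12).

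Other genes of the ribosome and of translation were set beside the family from lists fixed with earlier results known. Fau and Rack1, which encode ribosomal proteins that the symbol rule misses, had log2 fold changes of -0.09 and -0.13 (standard errors 0.12 each). The gene Rpl24, by its identifier, was at -0.11 (standard error 0.12). Of 16 other TOP mRNAs, such as those of elongation factors, the median log2 fold change was -0.09. At an unadjusted p under 0.05, 0 were lower (7.13% of all genes) and 0 higher (5.45%), and 16 genes are few beside such shares. The smallest p values among them were those of Btf3 (-0.22, standard error 0.11) and Nap1l1 (0.35, standard error 0.18).

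Of 39 initiation factors, 6 were lower and 0 higher at an unadjusted p under 0.05, where 7.13% of all genes were lower and 5.45% higher. Of the 6, 2 lie on chromosome 7 beyond 75 Mb. The median log2 fold change of the 39 factors was -0.07. The smallest p values were those of Eif3c, a core subunit of eIF3 on chromosome 7 beyond 75 Mb (-0.56, standard error 0.10, adjusted p = 0.0608 in edgeR), and of Eif2b5, the catalytic subunit of the exchange factor eIF2B on chromosome 16 (-0.35, standard error 0.09, adjusted p = 0.136 in edgeR). Ribosome assembly factors, 60 in number, were spread on both sides (median 0.00), led by Efl1 (-0.39) and Noc2l (-0.34). Of them, 5 were lower and 2 higher, shares near those of 7.13% and 5.45% over all genes. Of the 5 lower, 2 lie on chromosome 7 beyond 75 Mb. Of 22 genes of the TOR pathway, 3 were lower and 2 higher (median 0.04), against the same 7.13% and 5.45% of all genes. Among these, Eef2k, the kinase of elongation factor 2, on chromosome 7 beyond 75 Mb, was at -0.77 (standard error 0.18, adjusted p = 0.105 in edgeR) and Akt1s1 at -0.31.

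Mitochondrial ribosomal proteins are encoded in the nucleus and belong to another ribosome, assembled in mitochondria. Of 78 tested genes, 67 had a log2 fold change below 0 (47.7% of all genes did), and the median was -0.11. Their summed level was lowest in Nnmt KO library a, which had the highest TMM factor. The sums were 2603 to 3268 CPM in Nnmt KO and 2989 to 3619 CPM in control mice. At an unadjusted p under 0.05, 14 were lower (7.13% of all genes) and 1 was higher (5.45%). All 5 of them on chromosome 7 beyond 75 Mb were among the 14, led by Mrps11 and Mrpl17 (-0.52 and -0.62, standard errors 0.10 and 0.13). Mrps31 was the one higher (0.49, standard error 0.11, adjusted p = 0.0909 in edgeR). No gene of these lists passed an adjusted p of 0.05 in edgeR.

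**Figure D5:**
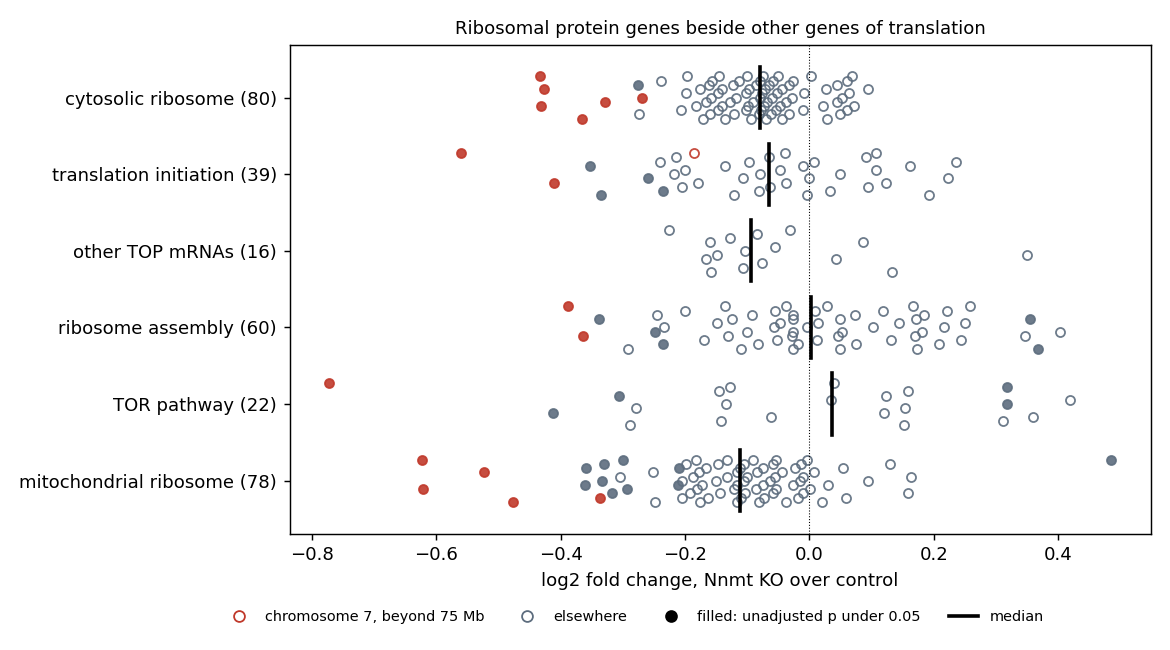
Log2 fold change, Nnmt KO over control (x axis), of the 80 coding cytosolic ribosomal protein genes and of 5 other lists (y axis, number of genes in brackets), with 1 circle per gene, filled where the unadjusted p was under 0.05, and a bar at the median. Medians run from -0.11 (mitochondrial ribosome) to 0.04 (TOR pathway). Of the genes on chromosome 7 beyond 75 Mb, drawn in red, all but 1 initiation factor are filled and below 0.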

How the data were processed

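RNA-seq counts per gene of 8 mouse livers were used. The deposited counts are whole numbers per gene, not normalized, which the authors made with HISAT2 according to the methods text. The submitters' processing notes also name StringTie and mm10, and the use of strand is not given in the sources used here, so reads of close copies, pseudogenes and overlapping genes may have been split in ways that cannot be checked. The methods text names a KAPA kit and the labels an NEBNext kit. No column was left out. Identical libraries were checked for, and the smallest chi-square per degree of freedom between libraries was 42.2.

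Genes passing edgeR's filterByExpr (minimum count 10) were tested on the whole table with TMM scaling and the quasi-likelihood test of edgeR 4.0.16 in R 4.3.3, with genotype as the only term and Benjamini-Hochberg adjustment over 15291 genes. The standard error is that implied by the F statistic. DESeq2 1.42.0, the study's own tool, was an alternative, beside other scalings, no filter, and each library left out in turn. Positions, types and transcript lengths come from GENCODE M21. Log2 CPM used a prior count of 2. The p-values measure the spread between 4 mice per genotype. The tests were tried on simulated counts first.

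The members and lists were chosen with earlier results of these data known. Named are Nnmt, the members of paralog pairs, the 8 lower and 4 higher members of smallest p, and the 3 most and 3 least abundant of each subunit per kb. Also named are the stalk genes, Rpsa, Rpl13, the members on chromosome 7, those next to the limit of 1 CPM, and 2 genes of smallest p in each other list. Results for a few of these genes are not reported here, though counts and medians include them.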

Additional observations from a re-analysis of the deposited data

Results flagged for a closer look

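In 106 groups of 4 libraries, a library that lies far from the other 3 was looked for with Dixon's criterion (the gap to the nearest other library over the whole range), and 5 were found, where chance alone gives about 5.3 (1 in 20 groups). Rpl18 was at 270.6 CPM in Nnmt KO library a and at 311.6 to 317.8 CPM in the other Nnmt KO libraries. Rpl39 was at 88.67 CPM in control library d and at 102.2 to 104.8 CPM in control libraries a to c. Rpl7l1 was at 75.47 CPM in control library a against 65.73 to 65.87 CPM. Rps27l was at 132.8 CPM in Nnmt KO library d against 93.96 to 97.33 CPM. Counts of Rpl7l1 were 24.2% of those of Rpl7 in control library c against 27.62% to 27.96% in the other control libraries.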

How the results depend on the processing

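No paired analysis was possible because the columns of the table carry no mouse number. The number of members lower in Nnmt KO at an unadjusted p under 0.05 was 7 under DESeq2 size factors, library size only, TMM without the ribosomal protein genes, DESeq2's test and no filter on low counts, and 4 to 7 with single libraries left out. It was 4 when libraries were scaled to the 80 coding members, an alternative chosen after seeing the data, which moved the median of all genes from 0.02 to 0.13 and the calls over all genes from 1091 lower and 834 higher to 377 and 1290. The members that remained under that scaling were Rpl27a, Rps13, Rplp2 and Rps15a. The number past an adjusted p of 0.05 was 0 in every edgeR setting and 3 with DESeq2's test. The median of the members was -0.07 with DESeq2 size factors, -0.03 with library size only and 0.02 when scaled to the members, with 68, 67, 59 and 32 members below 0 under TMM, DESeq2 size factors, library size only and member scaling, in that order. The 6 members on chromosome 7 beyond 75 Mb kept a log2 fold change below 0 in all settings, with medians of -0.47 to -0.29.

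Small differences turned sign. Scaled to the members, Rpl13 was at 0.030, Rpl22 at 0.087, Rpl36al at 0.035, Rpl39 at 0.040, Rpl41 at 0.071, Rpl7 at 0.026, Rplp1 at 0.00089, Rps15 at 0.0023, Rps19 at 0.022, Rps20 at 0.046, Rps3a3 at 0.093 and Rpsa at 0.071. With library size only, Rpl22 was at 0.026, Rpl41 at 0.024, Rps3a3 at 0.022 and Rpsa at 0.0059, and Rps3a3 was at 1.9e-05 with DESeq2 size factors and at 0.0028 with no filter. With single libraries left out, log2 fold changes ran from -0.066 to 0.18 for Rpl21, -0.095 to 0.038 for Rpl22, -0.050 to 0.19 for Rpl23, -0.092 to 0.16 for Rpl36a, -0.20 to 0.037 for Rpl36al, -0.16 to 0.0078 for Rpl39, -0.11 to 0.059 for Rpl41, -0.078 to 0.16 for Rpl5, -0.17 to 0.050 for Rps20, -0.10 to 0.096 for Rps24, -0.071 to 0.12 for Rps27l, -0.055 to 0.14 for Rps3a1, -0.13 to 0.13 for Rps3a3, -0.048 to 0.062 for Rps4x and -0.11 to 0.031 for Rpsa. None of these had passed a test. The cause of these changes was not tested.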

Other observations

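Markers of liver cell types were read in the same fit. At an unadjusted p under 0.05, 3 of 8 T and NK cell markers were higher in Nnmt KO mice, where 5.45% of all genes were (median log2 fold change 0.53, led by Cd8a and Gzma), as were 1 of 6 B and plasma cell markers (median 0.69, Jchain), 3 of 8 stellate cell markers (median 0.37, led by Dcn and Lrat) and 1 of 6 cholangiocyte markers (median 0.43, Epcam). None of 10 macrophage (median 0.25), 8 hepatocyte (0.05), 6 endothelial (-0.04) and 5 tested neutrophil markers (-0.01) was called, and 1 erythroid marker, Alas2, was lower (list median -0.17, where 7.13% of all genes were lower). No marker passed an adjusted p of 0.05 in edgeR. T and NK cell markers summed to 5.84 to 8.05 CPM in Nnmt KO and 3.88 to 5.51 CPM in control libraries, without overlap. B and plasma cell markers summed to 9.94 to 13.9 and 7.02 to 9.58 CPM, also without overlap. The sums of the other marker lists overlapped.

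The share of counts in genes of the mitochondrial genome was 4.39%, 5.46%, 5.38% and 6.50% in Nnmt KO livers (a to d) and 3.88%, 4.29%, 5.65% and 4.36% in control livers, so that the genotypes overlapped.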
